A study of Mus musculus with 6 samples.

Results

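Genes of the DNA replication machinery were followed through 6 lists of NUP214 binding sites from mouse bone marrow. The 44 genes, of 21887 protein-coding genes on the main chromosomes, were chosen by their role in replication. They comprise 8 MCM genes, 6 genes of the origin recognition complex (ORC), 4 GINS genes, 5 genes of replication factor C (RFC), 8 polymerase and primase genes, 5 factors that load or fire the helicase, 3 genes of the sliding clamp and the lagging strand, 3 of replication protein A (RPA) and 2 of ribonucleotide reductase. All 44 were matched by symbol to RefSeq genes of GRCm38.p6, the assembly that mm10 stands for. Binding of NUP214, which belongs to the nuclear pore, was mapped by CUT&Tag, in which an antibody brings a transposase to its target and the nearby DNA is cut and tagged. Nup214-HET leukemia stem cells (LSCs) were Nup214fl/+,Tie2-Cre cells from mice with acute myeloid leukemia driven by the fusion oncogene MLL-AF9. Control LSCs were Nup214fl/+ cells from mice with the same leukemia, and both LSC groups were sorted as lineage-negative, Sca-1-negative cells positive for c-Kit, CD16/32 and CD34. As hematopoietic stem cells (HSCs), CD48-CD150+LSK cells were sorted from Nup214fl/+ mice without the oncogene in their labels. Each group had 2 libraries, and all 3 groups carry the floxed allele. Tie2-Cre is active in blood and endothelial cells, and whether the paired libraries stem from different mice is not labelled. Peaks do not measure how much NUP214 was left in the heterozygous cells.

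Replication starts at origins that ORC, CDC6 and CDT1 load with a helicase made of MCM proteins, while geminin holds CDT1 back. The kinase CDC7 then helps CDC45 and GINS join the helicase, polymerase alpha and primase lay down primers, and RFC places the PCNA clamp under polymerases delta and epsilon. RPA covers single-stranded DNA, FEN1 and LIG1 join the lagging strand, and ribonucleotide reductase supplies the nucleotides. Dividing progenitors and leukemia cells transcribe these genes as they enter S phase, largely under E2F factors, whereas most HSCs are quiescent.

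The lists held 5452 and 4681 peaks in Nup214-HET LSCs, 25437 and 10525 in control LSCs, with 1045 and 634 in HSCs. Read totals were not among the files used. A depth implied by the authors' fold and p columns came to 1.77 and 1.72 in Nup214-HET LSCs, to 3.73 and 1 in control LSCs and to 4.91 and 1.96 in HSCs, relative to control LSC library 2. The smallest peaks were 320 and 329 bp wide in Nup214-HET LSCs, against 145 and 143 bp in control LSCs, and 205 and 229 bp in HSCs. None of the libraries is labelled as a control without the antibody, so cutting unrelated to NUP214 was not measured. A list from many cells cannot tell a site in fewer cells from a weaker site in each cell. The labels' cell type entry names a hematopoietic stem cell for all 6 libraries. Marker genes could not check it, since peaks do not measure expression and few genes had one. Of 8 HSC markers 0 had a peak near an end in either HSC library, where 1.04% and 0.0868% of all coding genes had one. Of 10 markers of LSCs and granulocyte-monocyte progenitors, 0 had one in both Nup214-HET libraries, against 6.76% of coding genes, and 2 in both control LSC libraries, against 21.3%.

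Sequences around transcription starts are shown because nearly all gene-end peaks of known strand at these genes lay at the start end, with summits on both sides of the start. Windows of 280 bases, from 250 before the RefSeq start (GRCm38.p6) to 30 bases from the start on, are printed 5′ to 3′ on the strand of the gene. Capitals mark the E2F-type letters TTTCCCGC, TTTGGCGC, TTTCGCGC and TTTGCCGC, and CCAAT, on either strand. Mcm5 (chr8:75109259-75109538, plus strand), Mcm6 (chr1:128359676-128359955, minus strand), Mcm7 (chr5:138171854-138172133, minus strand) and Cdc6 (chr11:98907901-98908180, plus strand) are shown because they had peaks in LSCs and hold E2F-type letters. Orc1 (chr4:108579204-108579483, plus strand) is shown for a peak at a start inside the annotated gene. Pcna (chr2:132253151-132253430, minus strand) had peaks in all 4 LSC libraries with no E2F-type letters in the window. Gins3 (chr8:95633309-95633588, plus strand) holds such letters and had no peak in any list. Of the 23 peaks at the starts of these 7 genes, 14 had their summit inside the printed window, among them 1 of 4 at Cdc6, 2 of 4 at Pcna and 2 of 6 at Mcm7. The annotated Cdc6 gene starts at 98907709, before its printed window.
Mcm5: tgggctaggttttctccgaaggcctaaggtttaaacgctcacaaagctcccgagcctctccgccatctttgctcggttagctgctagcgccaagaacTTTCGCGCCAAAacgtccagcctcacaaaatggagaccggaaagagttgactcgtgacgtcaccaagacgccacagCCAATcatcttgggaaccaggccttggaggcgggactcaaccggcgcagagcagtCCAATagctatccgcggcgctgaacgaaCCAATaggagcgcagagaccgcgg
Mcm6: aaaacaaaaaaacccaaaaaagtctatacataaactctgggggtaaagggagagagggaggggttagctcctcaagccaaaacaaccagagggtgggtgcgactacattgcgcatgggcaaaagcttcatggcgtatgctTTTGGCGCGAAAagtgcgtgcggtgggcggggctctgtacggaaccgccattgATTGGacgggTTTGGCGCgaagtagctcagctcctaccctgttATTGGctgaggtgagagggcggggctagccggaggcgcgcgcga
Mcm7: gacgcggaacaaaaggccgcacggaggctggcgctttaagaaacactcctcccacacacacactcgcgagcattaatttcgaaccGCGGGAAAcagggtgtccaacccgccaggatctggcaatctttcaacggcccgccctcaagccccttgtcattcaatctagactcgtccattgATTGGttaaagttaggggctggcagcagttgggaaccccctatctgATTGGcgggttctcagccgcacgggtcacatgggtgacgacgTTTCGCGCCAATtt
Cdc6: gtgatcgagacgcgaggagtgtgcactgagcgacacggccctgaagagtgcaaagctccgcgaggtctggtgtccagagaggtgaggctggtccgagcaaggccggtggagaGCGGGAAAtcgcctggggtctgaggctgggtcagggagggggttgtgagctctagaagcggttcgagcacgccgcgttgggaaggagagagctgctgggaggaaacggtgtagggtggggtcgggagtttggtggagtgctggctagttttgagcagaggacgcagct
Orc1: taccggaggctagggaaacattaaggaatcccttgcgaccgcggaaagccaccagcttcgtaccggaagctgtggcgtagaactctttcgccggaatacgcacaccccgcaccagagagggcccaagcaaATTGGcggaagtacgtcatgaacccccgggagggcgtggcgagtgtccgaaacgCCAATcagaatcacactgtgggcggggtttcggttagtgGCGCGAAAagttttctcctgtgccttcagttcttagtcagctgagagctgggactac
Pcna: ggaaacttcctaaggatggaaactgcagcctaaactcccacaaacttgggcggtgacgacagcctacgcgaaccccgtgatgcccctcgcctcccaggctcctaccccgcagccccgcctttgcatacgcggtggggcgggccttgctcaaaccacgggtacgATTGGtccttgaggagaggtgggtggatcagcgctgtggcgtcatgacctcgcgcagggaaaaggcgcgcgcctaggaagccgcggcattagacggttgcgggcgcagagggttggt
Gins3: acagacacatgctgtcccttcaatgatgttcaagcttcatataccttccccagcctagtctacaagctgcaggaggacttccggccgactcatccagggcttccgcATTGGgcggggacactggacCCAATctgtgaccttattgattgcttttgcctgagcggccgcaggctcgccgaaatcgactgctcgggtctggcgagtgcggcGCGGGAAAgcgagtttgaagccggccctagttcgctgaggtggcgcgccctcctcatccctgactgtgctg

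A gene-end peak is a peak that shares at least 1 bp with the 1 kb on each side of an annotated gene's start or end. Such a peak was found at 15 and 16 of the 44 replication genes in Nup214-HET LSCs (34.1% and 36.4%), at 37 and 22 in control LSCs (84.1% and 50%), and at 2 and 0 in HSCs (4.55% and 0%). Over all protein-coding genes the background shares were 11.5% and 9.49% in Nup214-HET LSCs, 43.3% and 21.9% in control LSCs, with 1.04% and 0.0868% in HSCs. The share of replication genes was thus above that of all coding genes in every library but HSC library 2. Many coding genes are silent in any given cell type, and this background was not matched for expression.

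**Figure D1:**
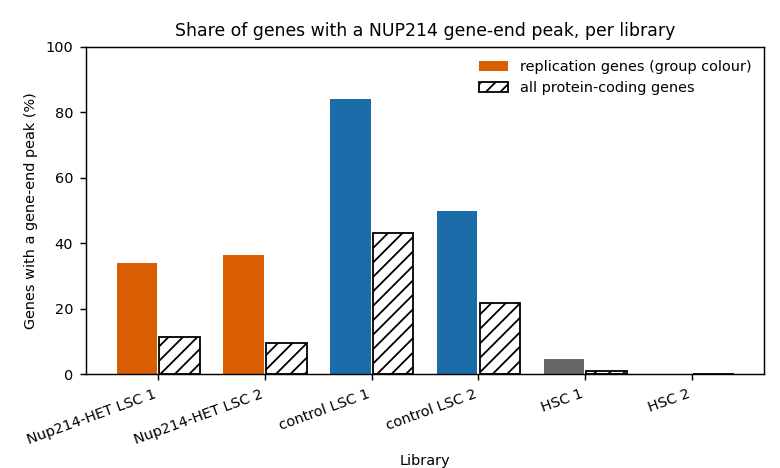
Percentage of genes with a NUP214 gene-end peak (vertical axis) in each of the 6 libraries (horizontal axis), for the 44 replication genes (solid bars, coloured by group) and all 21887 protein-coding genes (hatched bars). Replication genes reached 34.1% and 36.4% in Nup214-HET LSCs, 84.1% and 50% in control LSCs, with 4.55% and 0% in HSCs.

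A gene-end peak in both libraries puts a gene in the set of its group. Of the replication genes, 13 (29.5%) were in the Nup214-HET LSC set, 22 (50%) in the control LSC set and 0 in the HSC set. The background shares of all coding genes were 6.76%, 21.3% and 0.0411% in the same groups. Mcm4, Mcm7, Orc6, Gins2, Pold1, Cdc6, Cdt1, Cdc45, Pcna and Rrm2 had a gene-end peak in all 4 LSC libraries. That is 10 of 44 (22.7%), against 5.82% of all coding genes. Mcm5, Gmnn and Fen1 had a peak in both Nup214-HET libraries and in control LSC library 1, and none in control LSC library 2. So all 13 replication genes of the Nup214-HET set also had a gene-end peak in control LSC library 1. A peak in at least 1 control LSC library is the rule over the genome too. Of 1480 coding genes in the Nup214-HET set, 17 had none in either control LSC library. In the control LSC set were 76.9% of the 13 replication genes, against 86% of all coding genes of the Nup214-HET set. No list held a gene-end peak for 7 replication genes (15.9%), against 55.3% of coding genes: Orc1, Orc4, Gins3, Rfc1, Prim1, Prim2 and Lig1. When each LSC list was shortened to its top 4681 peaks by q, the length of the shortest, 13 replication genes were in the Nup214-HET set and 13 in the control LSC set. The corresponding numbers of coding genes were 1471 (6.72%) in the Nup214-HET set and 2682 (12.3%) in the control LSC set. At equal length 8 replication genes (18.2%) were in both LSC sets, against 4.89% of coding genes.

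**Figure D2:**
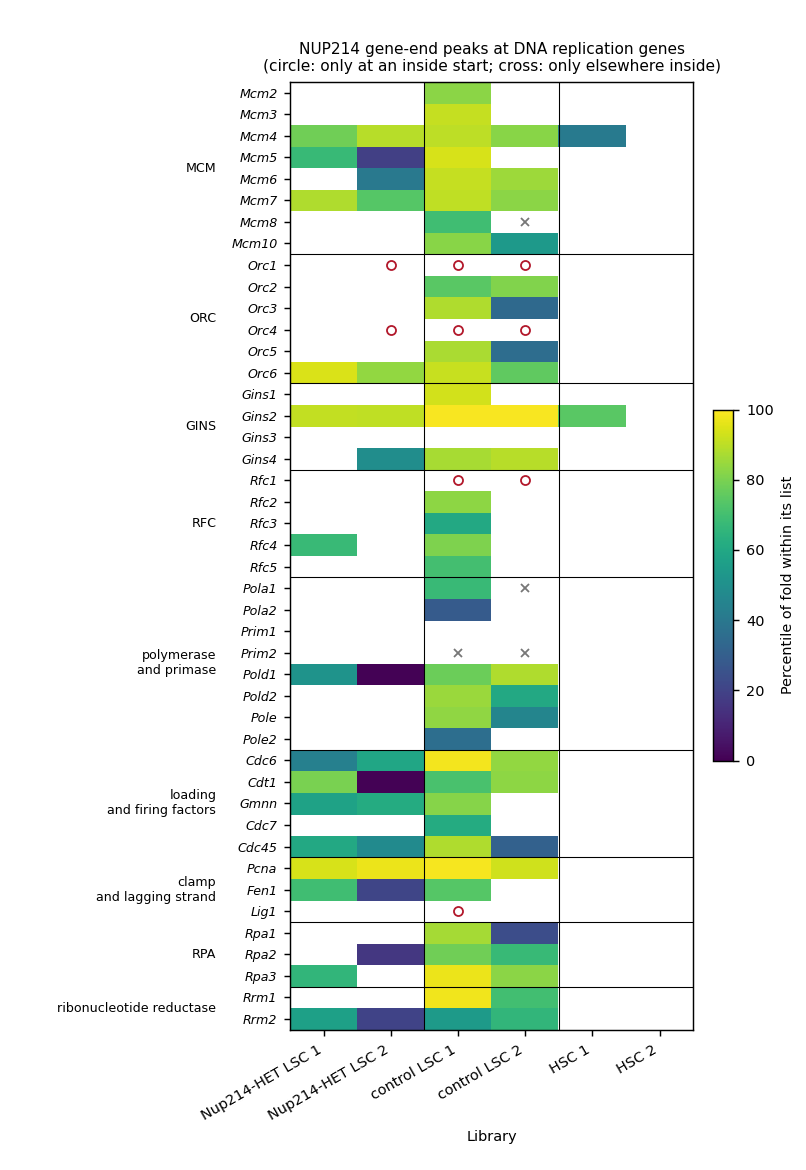
Each row is a replication gene, grouped by complex, and each column a library. Colour gives the percentile of the strongest gene-end peak's fold within its own list (0 to 100), white means no gene-end peak, circles mark peaks seen only at a start inside the gene, and crosses peaks seen only elsewhere inside it. Gins2 was at the 99.2 percentile in both control LSC libraries, and HSC library 1 has colour at Mcm4 and Gins2 alone. Prim2 has no listed start, so its crosses mark peaks away from its ends.

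The MCM genes were called most often in control LSC library 1. It had a gene-end peak at all 8, against 43.3% of coding genes, and library 2 at 4 (50%), against 21.9%. The Nup214-HET libraries had one at 3 and 4 (37.5% and 50%), against 11.5% and 9.49% of coding genes. Of the 6 genes Mcm2 to Mcm7, 3 (50%) were in each LSC set. The shares of all coding genes were 6.76% for the Nup214-HET set and 21.3% for the control LSC set. For each peak the authors give a fold enrichment of the summit over the local background, which ranks peaks only within a list. Mcm4, a subunit of the helicase, had folds of 6.59 and 7.65 in Nup214-HET LSCs, 12.2 and 8.47 in control LSCs and 5.30 in HSC library 1, with no peak in HSC library 2. It was thus present in 5 of 6 lists, at the 78.2 and 89.3 percentile of fold in Nup214-HET LSCs, 90.0 and 82.2 in control LSCs and 40.9 in the HSC list. In all 5 lists the Mcm4 peak also reached the end of Prkdc, which encodes the catalytic subunit of a DNA repair kinase. It lay at chr16:15637154-15637923 in Nup214-HET library 1. In HSC library 1 it began at 15637640, outside the annotated Mcm4 gene, whose last base is 15637400. Mcm7, another helicase subunit, had folds of 7.65 and 6.10 in Nup214-HET LSCs. Control LSC libraries 1 and 2 each held 2 peaks at the end of Mcm7, with folds of 12.3 and 7.62 in library 1 and of 8.53 and 5.91 in library 2. Both peaks lay at RefSeq starts of the gene, of which Mcm7 has 2, while each Nup214-HET library had a single wider peak (1069 and 979 bp). Mcm5, also of the helicase, had folds of 5.84 and 4.06 in Nup214-HET LSCs and 13.6 in control LSC library 1. Its peaks ranked at the 67.5 and 18.8 percentile in Nup214-HET LSCs and at 93.9 in control LSC library 1, whose list is longer. By q the Mcm5 peak was number 1732 and 3931 in the Nup214-HET lists and number 2664 in that of control LSC library 1. Mcm6 had a fold of 4.68 in Nup214-HET library 2 and folds of 12.6 and 8.98 in control LSCs. Here both control libraries were called and a single Nup214-HET library. Mcm10, which helps activate the helicase, was called in control LSCs alone, with folds of 10.2 and 5.94. Mcm2, Mcm3 and Mcm8, the last known for a role in homologous recombination, were called in control LSC library 1 alone, and Mcm3 had a fold of 12.6 there.

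ORC, which marks origins, had 4 of its 6 genes (66.7%) in the control LSC set, against 21.3% of coding genes. In the Nup214-HET set it had 1 (16.7%), against 6.76% of coding genes. Orc6 had folds of 8.96 and 6.94 in Nup214-HET LSCs, against 12.8 and 7.69 in control LSCs. Its percentiles, 94.4 and 83.8 in Nup214-HET LSCs, against 91.7 and 75.7 in control LSCs, overlapped. In every LSC library the Orc6 peak, at chr8:85299447-85299976 in control LSC library 1, was shared with the end of Vps35. That gene encodes a protein of endosomal sorting. Orc2, Orc3 and Orc5, core subunits, had gene-end peaks in both control LSC libraries and in no other list, with folds of 8.89 and 8.33 for Orc2 and 11.4 and 4.94 for Orc5. Orc1, the largest subunit, and Orc4 had no gene-end peak in any list. Each has a RefSeq start in the promoter table more than 1 kb inside the annotated gene, and peaks were found there. At the Orc1 start the fold was 6.24 in Nup214-HET library 2, and it was 16.9 and 9.53 in control LSCs. That at the Orc4 start was 5.91 in Nup214-HET library 2, and 15.5 and 7.54 in control LSCs. The Orc1 peaks also reached the end of Prpf38a and the Orc4 peaks that of Mbd5. The other 3 libraries had no peak at either gene.

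Gins2, of the GINS complex that joins the helicase, ranked highest among the replication genes in both control LSC lists and in that of HSC library 1. It had folds of 8.12 and 7.81 in Nup214-HET LSCs, 18.8 and 17.3 in control LSCs and 7.09 in HSC library 1. By q its peak was number 293 and 256 in the Nup214-HET lists, number 60 and 73 in the control LSC lists and number 298 in the list of HSC library 1. HSC library 2 had no peak there. Gins4 had a fold of 5.02 in Nup214-HET library 2, and folds of 11.3 and 9.89 in control LSCs. Gins1 had a gene-end peak in control LSC library 1 alone, with a fold of 13.3, and Gins3 had none in any list, nor any peak inside.

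The RFC clamp loader was in neither LSC set. In control LSC library 1, 4 of its 5 genes (80%) had a gene-end peak, against 43.3% of coding genes. In library 2 none had, against 21.9% of coding genes. Rfc4 had a fold of 5.87 in Nup214-HET library 1 and of 9.94 in control LSC library 1, so 1 library of each LSC group was called. Rfc2, Rfc3 and Rfc5, small subunits, were called in control LSC library 1 alone, with folds of 10.3 at Rfc2 and 8.36 at Rfc5. Rfc1, the large subunit, had no gene-end peak, but had a peak at its RefSeq start inside the annotated gene in both control LSC libraries, with folds of 10.2 and 3.89.

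Among the polymerases, Pold1, Pold2 and Pole were called in more libraries than Pole2 and the genes of alpha and primase. Pold1, the catalytic subunit of polymerase delta, had folds of 5.07 and 3.38 in Nup214-HET LSCs, against 9.38 and 9.54 in control LSCs. The Nup214-HET peaks ranked at the 51.5 and 0.641 percentile of their lists and the control LSC peaks at 77.5 and 88.0. In every LSC library the Pold1 gene-end peak, at chr7:44548659-44549052 in control LSC library 1, also reached Nr1h2, which encodes a nuclear receptor. Pold2, an accessory subunit, and Pole, the catalytic subunit of epsilon, were called in control LSCs alone, with folds of 10.8 and 6.36 for Pold2 and of 10.4 and 5.41 for Pole. Pola1 and Pola2, of polymerase alpha, and Pole2 had a gene-end peak in control LSC library 1 alone. The primase genes Prim1 and Prim2 had none. No list held a peak anywhere in Prim1, while Prim2 had peaks deep inside the gene in control LSCs alone.

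Factors that load and fire the helicase had 4 of 5 genes (80%) in the Nup214-HET set, where 6.76% of coding genes were. In the control LSC set they had 3 of 5 (60%), where 21.3% of coding genes were. Cdc6, a loader of the helicase, had folds of 4.85 and 5.35 in Nup214-HET LSCs, against 16.9 and 8.74 in control LSCs. Its summit lay at the same base, 98907735 on chromosome 11, in Nup214-HET library 1 and in both control LSC libraries. That is −416 bp from the start listed in the promoter table (98908151), but after the start of the annotated gene (98907709). Percentiles were lower in both Nup214-HET lists (43.4 and 59.3) than in both control LSC lists (98.4 and 83.7), which are longer. By q the Cdc6 peak was number 2819 and 1761 in the Nup214-HET lists and number 1097 and 1885 in the control LSC lists, so these ranks overlapped. Cdt1, its partner, had folds of 6.73 and 3.36 in Nup214-HET LSCs, against 8.51 and 8.58 in control LSCs. The peak of Nup214-HET library 2 had a −log10 q of 1.42, close to the limit of the lists, and ranked at the 0.62 percentile of fold. Gmnn, which encodes geminin, had folds of 5.38 and 5.48 in Nup214-HET LSCs and 10.1 in control LSC library 1. Cdc45, a part of the active helicase, had folds of 5.51 and 4.97 in Nup214-HET LSCs, against 11.6 and 4.56 in control LSCs, where the peaks of both groups also reached Ufd1. The percentiles of Cdc45, 60.3 and 47.8 in Nup214-HET LSCs, against 88.2 and 31.2 in control LSCs, overlapped. Cdc7, the kinase, was called in control LSC library 1 alone, with a fold of 7.45.

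Pcna, the sliding clamp, was the strongest replication gene of Nup214-HET library 2 and among the 3 strongest of every other LSC list. It had folds of 8.84 and 9.68 in Nup214-HET LSCs, against 16.9 and 10.9 in control LSCs. The percentiles were 93.9 and 97.1 in Nup214-HET LSCs, against 98.5 and 92.8 in control LSCs, so the groups overlapped. The peak lay at chr2:132252578-132253394 in Nup214-HET library 1 and chr2:132252637-132253449 in control LSC library 1, and reached the end of Cds2, a gene of lipid synthesis. Fen1, the flap nuclease, had folds of 5.97 and 4.16 in Nup214-HET LSCs and 8.77 in control LSC library 1, at a site shared with Tmem258. Lig1, the ligase, had no gene-end peak in any list. In control LSC library 1 it had a peak at a start inside the gene, with a fold of 7.80.

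Of the 3 RPA genes, 0 were in the Nup214-HET set, against 6.76% of coding genes. All 3 were in the control LSC set, against 21.3% of coding genes. Rpa1, the large subunit, had no peak in Nup214-HET LSCs, against folds of 11.2 and 4.37 in control LSCs. Rpa2 had a fold of 3.91 in Nup214-HET library 2 and folds of 9.50 and 6.92 in control LSCs. For Rpa3, the small subunit, the fold was 5.76 in Nup214-HET library 1, and the folds were 15.6 and 8.56 in control LSCs. Differences between complexes were not tested. Of ribonucleotide reductase, Rrm2, the subunit that rises in S phase, was called in all 4 LSC libraries, with folds of 5.34 and 4.13 in Nup214-HET LSCs, against 6.85 and 6.77 in control LSCs. Rrm1, the large subunit, was called in control LSCs alone, with folds of 16.2 and 7.13. By percentile of fold, Rrm1 (97.8 and 69.9) ranked above Rrm2 (54.6 and 65.8) in both control LSC lists.

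**Figure D3:**
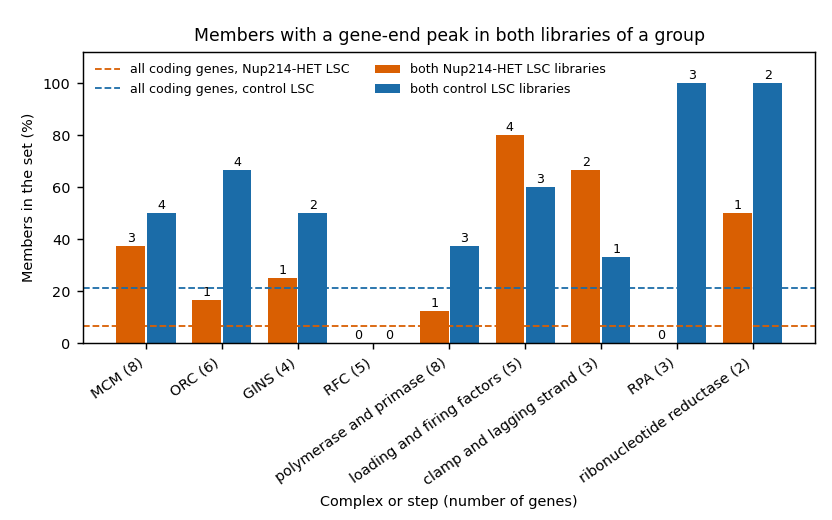
Percentage of the genes of each complex or step (horizontal axis, with its number of genes) that had a gene-end peak in both Nup214-HET LSC libraries (left bars) or both control LSC libraries (right bars), with the number of genes above each bar and dashed lines at the shares of all coding genes (6.76% and 21.3%). RFC had 0 in both sets, RPA 0 and 3, and the loading and firing factors 4 and 3.

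The genotype comparison asks which sites of control LSCs are also called where Tie2-Cre is present. Of the 22 replication genes of the control LSC set, 10 (45.5%) were in the Nup214-HET set, against 27.3% of all coding genes in the control set. A further 4 of the 22 had a peak in 1 Nup214-HET library, against 1020 of the 4655 coding genes in the control set. These 4 were Mcm6, Gins4, Rpa2 and Rpa3. The remaining 8 (36.4%), against 50.7% of all coding genes in the control set, had none in either: Mcm10, Orc2, Orc3, Orc5, Pold2, Pole, Rpa1 and Rrm1. Without control LSC library 2, the control LSC set grew to 37 genes, of which 19 lacked a Nup214-HET peak, against 68.7% of the coding genes called in library 1. With LSC lists of equal length, 2 of 13 (15.4%) lacked one, against 35.8% of coding genes in the control LSC set. In the other direction, 2 of the 13 replication genes of the Nup214-HET set then had no peak in either control LSC library. The same held for 186 of the 1471 coding genes of that set. Over the genome, 2524 and 2076 coding genes were called in Nup214-HET LSCs against 9485 and 4800 in control LSCs, so the groups did not overlap. A two-sided exact permutation test over the libraries gave p = 0.33 for this difference, the smallest p that 2 against 2 libraries allow. No single gene could therefore pass a test between groups, and the differences between genes above are descriptions of these libraries.

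The lists of both LSC groups were also set against HSCs. Mcm4 and Gins2 were the only replication genes with a gene-end peak in HSCs, both in library 1, and both were called in all 4 LSC libraries. Without HSC library 2, the HSC set would hold these 2. The Mcm4 peak of HSC library 1 was shared with the end of Prkdc. Of the 22 genes of the control LSC set, 20 had none in HSCs, and of all coding genes in that set 95.6% had none. The pileup implied at the Mcm4 summit was 17 and 19 in Nup214-HET LSCs, 39 and 11 in control LSCs, and 8 in HSC library 1. The Gins2 summit had 36 and 36 in Nup214-HET LSCs, 169 and 48 in control LSCs, and 13 in HSC library 1. So both summits were lowest in HSCs, in pileups not scaled for depth. Each LSC library had more coding genes called than either HSC library (227 and 19), and the two-sided exact permutation test gave p = 0.33 for Nup214-HET LSCs against HSCs and p = 0.33 for control LSCs against HSCs. Since the comparisons share the control LSC libraries, or the HSC libraries, they are not independent of each other.

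Gene-end peaks at the replication genes lay around the transcription start. The strand was known for the 36 genes with an entry in the RefSeq promoter table, while Mcm4, Gins1, Gins2, Gins4, Rfc2, Prim2, Pole and Gmnn had no entry. Over all libraries these 36 genes had 75 gene-end peaks, of which 74 lay at the start end. The exception was the far end of Mcm3 in control LSC library 1, which had a peak at the start as well. The median summit position relative to the nearest listed start was −117 and −46.5 bp in Nup214-HET LSCs, and −40 and −41 bp in control LSCs, negative values lying before the start. Of the 74 summits, 50 lay before the start, 1 at it and 23 after it. Of all 74, 68 were within 300 bp of the start, and the extremes were −486 bp at Rrm2 and 604 bp at Cdc45, both in Nup214-HET library 2. The start end is the rule for other genes too: of coding genes with a gene-end peak and a known strand, 94.7% and 93.9% had it at the start end in Nup214-HET LSCs, and 95.4% and 95.2% in control LSCs. With peaks at a listed start counted beside those at the gene ends, 13 replication genes were in the Nup214-HET set and 25 in the control LSC set, against 7.29% and 22.9% of all coding genes, and the HSC set held 0, against 0.0457%. Gins3, Prim1 and Prim2 (no listed start) were the only replication genes with no such peak in any list, as were 52.2% of coding genes. This count was added after the data were seen. Of the 37 replication genes with a gene-end peak in any list, 13 shared it with the end of a neighbouring coding gene, so the peak may belong to either. Beside the neighbours already named, these were Ap4m1 at Mcm7, Trmt6 at Mcm8, Rars2 at Orc3, Pxmp2 at Pole, Klhdc1 at Pole2, Smyd4 at Rpa1 and Umad1 at Rpa3.

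**Figure D4:**
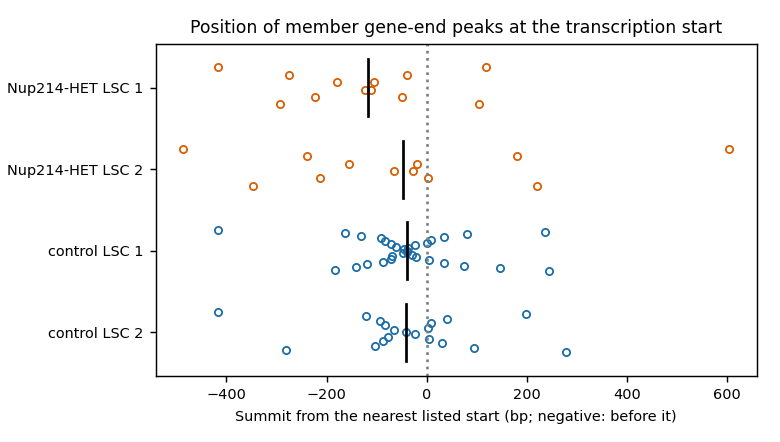
Distance in bp from the nearest listed transcription start (horizontal axis, negative before the start) to the summit of each gene-end peak at that start, for the 36 replication genes with a known strand, by LSC library (rows). Black bars are medians, at −117 and −46.5 bp in Nup214-HET LSCs and −40 and −41 bp in control LSCs.

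The windows around the starts were searched for letters that E2F and CCAAT-binding factors are known to bind, as a description with no test. Any of the 4 E2F-type sequences was found in 11 of 36 replication genes (30.6%), against 3.09% of 17492 coding genes and 2.12% of all 32851 windows of the same length. CCAAT was found in 24 of 36 (66.7%), against 41.4% of coding genes and 36.1% of all windows. The E2F-type letters were held by Cdc6, Gins3, Mcm3, Mcm5, Mcm6, Mcm7, Orc1, Orc3, Pola1, Pole2 and Rfc3. In the printed windows of Mcm5 and Mcm6, TTTCGCGC and TTTGGCGC overlap on opposite strands, with their first printed bases at −153 and −149 bp from the Mcm5 start. In that of Mcm7, TTTCGCGC overlaps a CCAAT. A peak at a listed start was found in both Nup214-HET libraries for 10 of the 36 genes (27.8%), in both control LSC libraries for 21 (58.3%) and in both HSC libraries for 0, against 7.31%, 22.7% and 0.0286% of coding genes. In Nup214-HET LSCs these were 3 of the 11 genes with E2F-type letters and 7 of the 25 without. In control LSCs they were 5 of the 11 and 16 of the 25. By CCAAT, they were 6 of the 24 genes with it and 4 of the 12 without in Nup214-HET LSCs, and 16 of the 24 and 5 of the 12 in control LSCs. A match is a description of these letters and no evidence of binding. The median number of CG dinucleotides in a window was 20 for replication genes and 12 for coding genes.

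Other genes of the pathway were counted in the same way. A further 57 genes of replication, nucleotide supply, chromatin assembly and the entry into S phase were taken. Of these, 17 and 18 were called in Nup214-HET LSCs (29.8% and 31.6%), against 11.5% and 9.49% of all coding genes. In control LSCs 48 and 32 were called (84.2% and 56.1%), against 43.3% and 21.9% of coding genes. In HSCs 2 and 0 were called (3.51% and 0%), against 1.04% and 0.0868% of coding genes. In the Nup214-HET set were 13 of the 57 genes (22.8%), against 6.76% of all coding genes, and in the control LSC set 32 (56.1%), against 21.3%. Genes in both LSC sets included Pold4, Pole3 and Pole4, small polymerase subunits, Rrm2b, Dck and Nme1, enzymes of nucleotide supply, the chromatin assembly genes Asf1b, Uhrf1 and Rbbp4, and the transcription factor gene E2f3. In HSC library 1 the genes called were Rbbp4 and E2f3. Among 20 markers of endothelial, erythroid, B and T cells, 1 (5%) was in the Nup214-HET set, close to the 6.76% of all coding genes. In the control LSC set were 2 (10%), against 21.3% of all coding genes.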

How the data were processed

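The 6 libraries, 2 per group, were grouped by their sample titles. Per the submitters' processing notes, the authors used FastQC 0.11.5, Bowtie2 2.2.9, MACS2, ChIPseeker and the mm10 build. MACS2 settings, a control sample and the treatment of duplicates were not in the sources used. The authors deposited 1 peak list per library, with a score, a fold enrichment (a linear ratio), a −log10 p and a −log10 q per peak, and a summit position. The lists end near a q of 0.05. Implied pileups were solved from the deposited fold and −log10 p, as whole numbers within a relative tolerance of 0.0001. Background pileup over the smallest peak width gave the implied depth, which rests on the MACS2 formula and not on the labels.

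Peaks outside chromosomes 1 to 19, X and Y were dropped and the others joined to RefSeq genes in Python 3.11.15 with pandas 2.3.3. The overlap code was tested on simulated peaks. Promoter sequences came from RefSeq (GRCm38.p6). Replicate libraries may be technical, so p-values measure only the spread between these libraries. Counts over the replication genes have no test. Values are given for every gene with a gene-end peak in Nup214-HET LSCs or HSCs, and for up to 2 further genes per complex, ranked by their average percentile in control LSCs. A few more values and names beyond this rule were chosen after they were seen. One gene of the further pathway lists is counted but not reported by name here. The genes, lists and rules were chosen with earlier results of these data known.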

Additional observations from a re-analysis of the deposited data

How the results depend on the processing

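The counts of replication genes kept within 1.5 times of their value under windows of 0.5 and 2 kb, summits in place of overlap, listed starts alone (10 in the Nup214-HET set and 21 in the control LSC set, of 36 genes) and a −log10 q of at least 2.64. With all lists cut to 634 peaks, 2 genes (4.55%) were in the Nup214-HET set, against 1.72% of coding genes, 1 (2.27%) in the control LSC set, close to the 1.82% of coding genes, and 0 were in the control LSC set without a Nup214-HET peak. The −log10 q limit of 2.64 left 10 (22.7%) in the Nup214-HET set, against 6.2% of coding genes. Mcm5, Cdt1 and Fen1 left that set. In the control LSC set the same limit kept 22 (50%), against 19.8% of coding genes. With LSC lists cut to 4681 peaks, the control LSC set held 13 and 2 of them had no Nup214-HET peak. A summit limit of 30.3 times the background, chosen after the data were seen, left 8 in the Nup214-HET set (18.2%, against 5.22% of coding genes), and 13 when scaled for peak width. Leaving out 1 library at a time, the sets ranged from 15 to 16 for Nup214-HET LSCs, 22 to 37 for control LSCs and 0 to 2 for HSCs, and the control LSC genes without a Nup214-HET peak from 8 to 19. The high values came without library 2 of control LSCs or of HSCs. The differences in coding genes kept their direction under all alternatives run on them, but not their size: with all lists cut to 634 peaks, Nup214-HET minus control LSCs shrank to −33.5 genes, against −4842.5 with whole lists, and control LSCs minus HSCs to 487 against 7019.5. Exchanging libraries only within a replicate number (the replicate block) left the difference between Nup214-HET and control LSCs at −4842.5 genes, with an exact permutation p of 0.5. The numbers pair no libraries in the labels, and same-numbered deviations correlated by 0.002, −0.043 and 0.001. The lists hold no read totals, so how far depth limited the calls near the lower end of each list is unknown.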

Other observations

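Some peaks lay inside replication genes, away from both ends and from any listed start, and belong to no comparison above. Cdc6 had such a peak about 10 kb after its start in both Nup214-HET libraries, with folds of 3.39 and 3.78, and in control LSC library 1, with a fold of 10.4. In Lig1 the strongest peak of control LSC library 1 (chr7:13302831-13303100) was of this kind, with a fold of 13.5, above the 7.80 at its inside start. Prim2, which has no listed start to compare with, had 2 and 3 peaks away from its ends in the control LSC libraries, with folds from 3.54 to 5.97. The strongest of library 2 (chr1:33578623-33578833) overlapped the weaker of library 1 (chr1:33578735-33578934).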
